A study of Atriplex lentiformis with 8 samples.

Results

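Fatty acid desaturases put the double bonds into the acyl chains of leaf membrane lipids. The 9 desaturases considered were FAD2 (AT3G12120) of the endoplasmic reticulum (ER), the plastid membrane enzymes FAD4 (AT4G27030), FAD5 (AT3G15850), FAD6 (AT4G30950), FAD7 (AT3G11170) and FAD8 (AT5G05580), and the stearoyl-ACP desaturases FAB2 (AT2G43710), SAD5 (AT3G02630) and SAD6 (AT1G43800) of the plastid stroma. They were identified as the transcripts whose best BLASTx match among Arabidopsis (TAIR10) proteins was one of these loci. That rule found 20 of the 46492 assembled transcripts of the table, and they covered 8 of the 9 genes, among 12468 Arabidopsis loci matched in all. No transcript matched SAD6. The compartments are those of the Arabidopsis proteins, and a best match does not show orthology.

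The RNA came from leaves of Atriplex lentiformis (quailbush), a salt-tolerant C4 shrub, with 4 biological replicates at each of 2 growth temperatures. The cool plants had days of 23 °C and nights of 18 °C, the hot plants days of 43 °C and nights of 30 °C, in separate chambers and with 16 hours of light, and the labels give 8 weeks for all samples. Temperature and chamber therefore cannot be told apart. The labels give the cool leaves a 16:3 and the hot leaves an 18:3 lipid phenotype, and no genotype or salt treatment. Only the authors' mean of each group was analysed here, so levels are given without an SD. "Rose" and "fell" mean an adjusted p (FDR) below 0.05 in the authors' deposited table. The test behind it, and whether it rests on the spread between plants, are not given in the sources used.

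Fatty acids are built in the plastid stroma, where the soluble stearoyl-ACP desaturases place the first double bond and so set the flow of saturated and unsaturated chains. From there, chains either stay in the plastid or leave for the ER. Chains that stay are desaturated further on plastid lipids. On the way from palmitate to 16:3 FAD5 acts first, then FAD6, and last FAD7 or FAD8, which make the trienoic chains. FAD4 acts apart from this series, on the palmitate of plastid phosphatidylglycerol. Chains that reach the ER are desaturated on phosphatidylcholine by FAD2 and then FAD3, and part of them returns to the plastid. Plastid desaturases draw electrons from ferredoxin, whereas the ER enzymes draw them from cytochrome b5.

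At 43 °C the ER enzyme FAD2 and the plastid membrane enzyme FAD4 rose in all their transcripts, and the stromal SAD5 in 1 of 2. The most abundant transcript of FAD5 fell, while FAD7 and FAD8 did not pass at the authors' scaling. With both columns scaled to equal totals the most abundant FAD8 transcript passed as higher (log2 change 0.29). FAD2 summed over its transcripts to 71.2 FPKM at 23 °C against 154.7 at 43 °C, and SAD5 to 66.7 against 165.8 FPKM. FAD4 was lower in level, with sums of 13.9 FPKM at 23 °C and 23.0 at 43 °C. FAD5 had a sum of 124.0 FPKM at 23 °C against 69.1 at 43 °C. FAD7 and FAD8 together were at 199.1 and 201.2 FPKM. FPKM is scaled for transcript length, so these levels can be set beside each other between genes. Sums carry no test of their own, since they are sums of means.

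Of the 20 transcripts, 6 rose and 4 fell, against 20.7% of all transcripts that rose and 17.8% that fell (38.5% in all). With both columns scaled to equal totals 8 of them were higher and 1 lower, and with quantile normalization 7 and 2. The share that passed, 10 of 20, was above the share in the whole table, but passing went with abundance. In the top 10% of the table by abundance, 26.5% of transcripts were called higher and 48.6% lower (75.2% in all), and of the 7 desaturase transcripts there 2 rose and 3 fell. By the most abundant transcript of each gene, taken by mean FPKM over both temperatures, 3 genes rose (FAD2, FAD4, SAD5), 3 fell (FAD5, FAD6, FAB2) and 2 did not pass (FAD7, FAD8). For SAD5 that transcript led only through its level at 43 °C. The SAD5 transcript that was higher at 23 °C did not pass, so the call for SAD5 depends on this choice. Over all matched loci counted in this way, 26.9% rose and 30.9% fell (57.7% in all). Of the 8 genes 6 lie in the most abundant 10%, where 74.6% of matched loci passed. Of those 6 genes all but FAD8 passed, while FAD4 and FAD7 lie below that class, so the count of 6 of 8 mixes classes. So few genes do not set the desaturases apart from other genes of like abundance. The median log2 change was 0.23 over the 20 transcripts and -0.08 over the 8 most abundant ones, against 0.10 for all transcripts and -0.01 for the most abundant transcript of every matched locus.

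**Figure D1:**
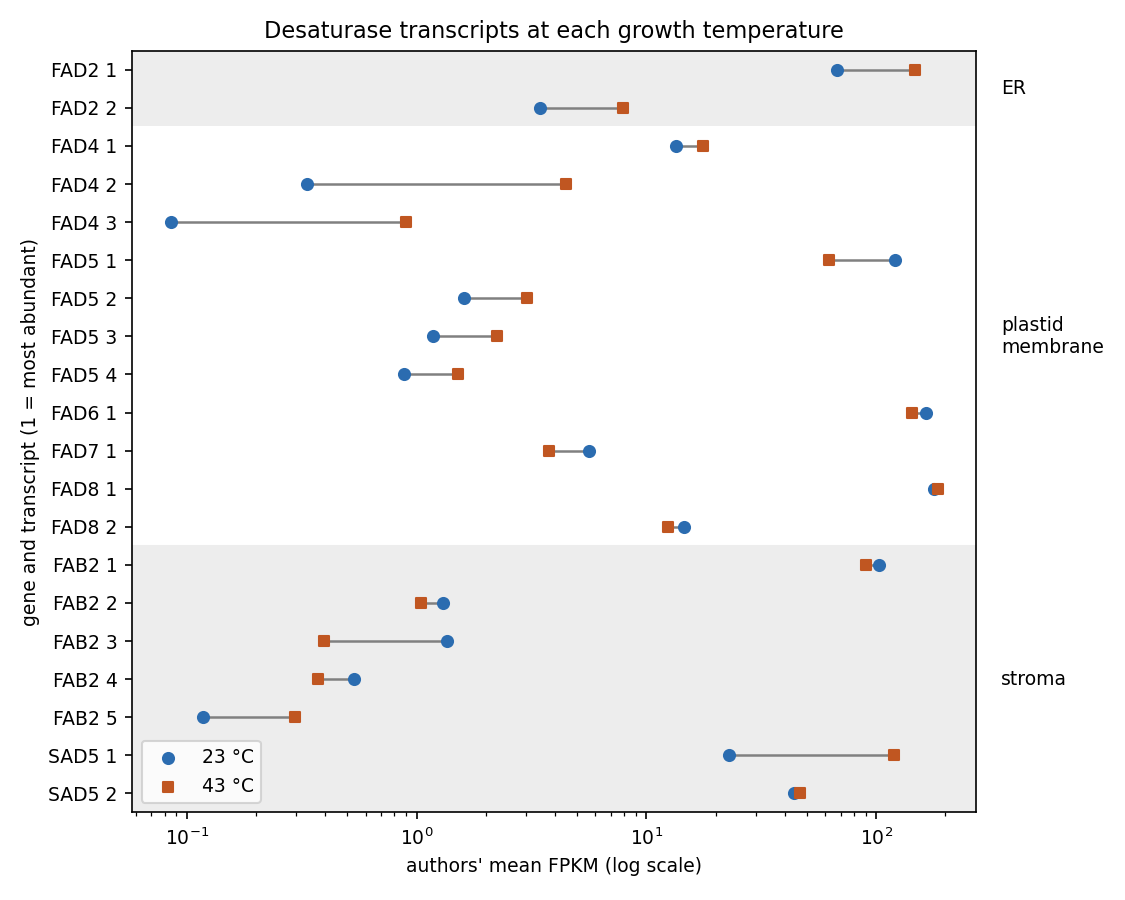
The authors' mean FPKM of each of the 20 desaturase transcripts at 23 °C (circles) and 43 °C (squares), on a log axis, grouped by compartment and numbered within each gene from the most abundant. Both FAD2 transcripts and all 3 FAD4 transcripts lie to the right at 43 °C, whereas the most abundant FAD5 transcript moves from 120.3 to 62.3 FPKM.

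FAD2 makes linoleate from oleate on phosphatidylcholine. Its most abundant transcript, 2019 bases long, was at 67.8 FPKM at 23 °C and rose to 146.8 FPKM at 43 °C. The second, of 1993 bases, was at 3.45 and 7.91 FPKM. Both rose by about the same factor, 2.15-fold and 2.28-fold by the authors' deposited table. The first log2 change in that table, 1.11 with an adjusted p of 9.35e-48, has an approximate 95% interval of 0.96 to 1.25. The second was 1.19 in the authors' deposited table (adjusted p = 1.29e-06), with an interval of 0.74 to 1.63. The first transcript held 95.2% of the FAD2 sum at 23 °C and 94.9% at 43 °C, so the balance between them stayed near where it was. FAD3, the ER enzyme that follows FAD2, had no matched transcript, and nothing is said here of its level.

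Among the plastid membrane enzymes, FAD5 adds the first double bond to palmitate on the main galactolipid, the step that opens the way to 16:3. Its most abundant transcript, of 1796 bases, went down from 120.3 FPKM at 23 °C to 62.3 at 43 °C. The authors' deposited table gives it a log2 change of -0.96 and an adjusted p of 7.54e-25, and the approximate 95% interval is -1.13 to -0.78. The other 3 transcripts matched to FAD5 were short, from 275 to 599 bases, and none passed. They were listed higher at 43 °C, at 1.60 and 3.02 FPKM, at 1.17 and 2.23 FPKM, and at 0.88 and 1.51 FPKM. Together they summed to 3.65 FPKM at 23 °C against 6.76 at 43 °C, so the FAD5 sum was 1.79-fold lower at 43 °C and the single transcript 1.94-fold lower. These 3 share an identifier stem in the assembly and may be pieces of 1 RNA, which was not tested. If they are, the FAD5 and plastid membrane sums count that RNA more than once.

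FAD6, which makes the second double bond in plastid lipids, had a single transcript of 2423 bases. It fell from 165.2 FPKM at 23 °C to 143.4 at 43 °C, for which the authors' deposited table gives a log2 change of -0.21 and an adjusted p of 0.031. This small change turned to 0.041 when both columns were scaled to 1 total. FAD5, the enzyme acting before it, fell further. The difference between their log2 changes was -0.75, with an approximate 95% interval of -0.99 to -0.50, and the FAD5 to FAD6 ratio of summed FPKM went from 0.75 at 23 °C to 0.48 at 43 °C.

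FAD7 and FAD8 make the trienoic chains, and in Arabidopsis FAD8 is the form induced by cold. The most abundant FAD8 transcript was the highest of all 20, at 178.9 FPKM in the cool and 185.0 FPKM in the hot leaves. By the authors' deposited table it did not pass (log2 change 0.04, adjusted p = 0.73), and the approximate 95% interval of -0.11 to 0.19 leaves room only for a small change at the authors' scaling. With equal totals it passed at a log2 change of 0.29. The second FAD8 transcript, comp34917_c1_seq1 of 986 bases, was at 14.6 and 12.5 FPKM and did not pass either. The only FAD7 transcript, comp34917_c0_seq2 of 689 bases, was at 5.62 and 3.77 FPKM. It did not pass (log2 change -0.58), and its wide interval of -1.41 to 0.24 shows how little can be said of FAD7. Since the FAD7 transcript and the second FAD8 transcript share an identifier stem, they may be pieces of 1 RNA. A shared stem is no proof of it, as the most abundant FAD8 transcript shares one with a transcript that matched expansin EXPA1. The assignment of these 2 short transcripts to FAD7 or FAD8 is therefore uncertain.

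FAD4 puts a trans double bond into the palmitate of plastid phosphatidylglycerol and was the only plastid membrane gene to rise at the authors' scaling (with equal totals FAD8 passed as higher too). Its most abundant transcript, of 1866 bases, rose from 13.5 FPKM at 23 °C to 17.6 at 43 °C, with a log2 change of 0.38 and an adjusted p of 0.0075 by the authors' deposited table. A transcript of 809 bases rose from 0.33 to 4.46 FPKM and another, of 1261 bases, from 0.085 to 0.90 FPKM. These rises of 12.9-fold and 10.2-fold were the largest of any desaturase transcript, but started from very low levels and have wide approximate 95% intervals on the log2 scale, 2.40 to 4.98 and 1.38 to 5.31. The most abundant transcript made up 97.0% of the FAD4 sum at 23 °C and 76.7% at 43 °C. FAD4 as a whole stayed low among the desaturases, with sums of 13.9 and 23.0 FPKM. After median centring the most abundant transcript no longer passed (log2 change 0.28), while both minor ones did.

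**Figure D2:**
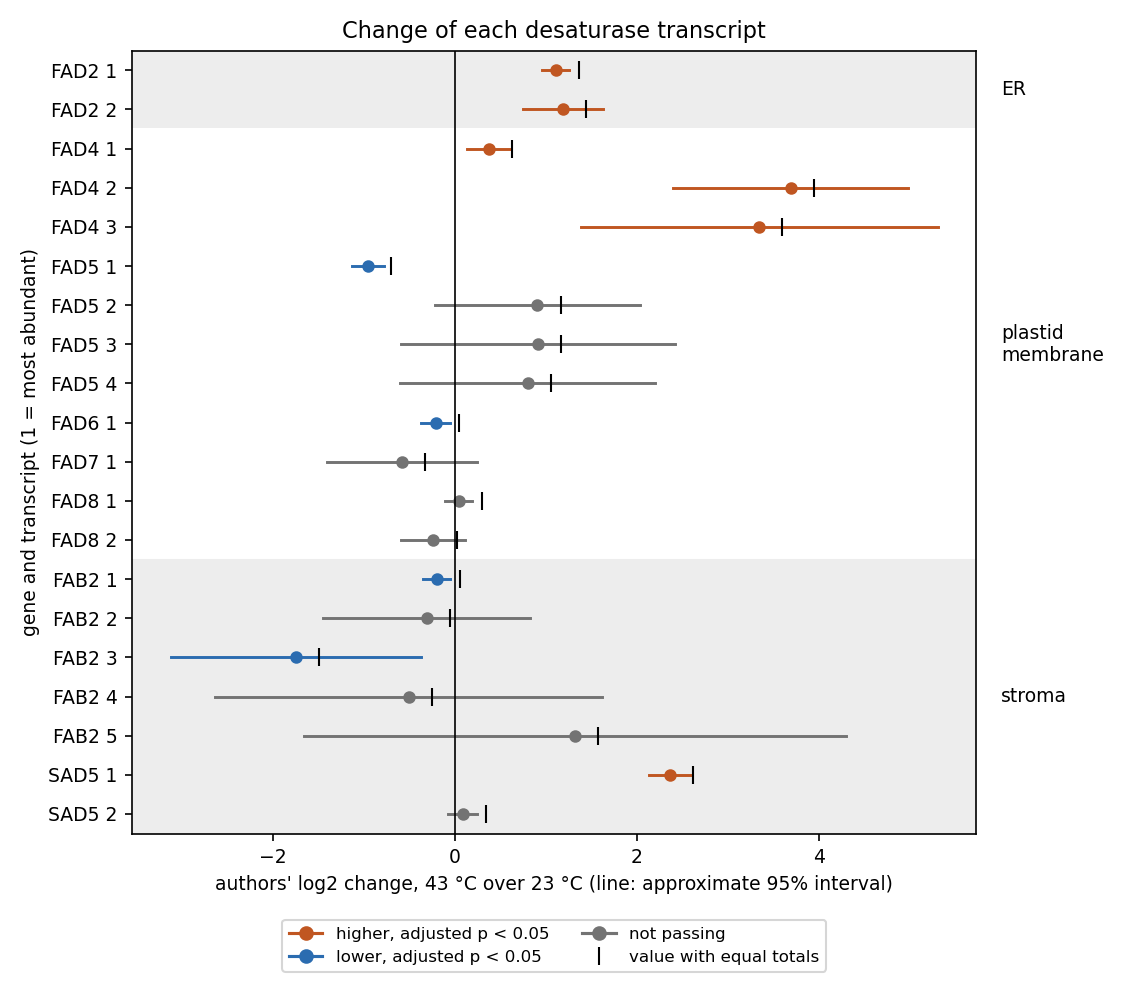
The authors' log2 change of each desaturase transcript, 43 °C over 23 °C, with lines for approximate 95% intervals derived from the authors' p-values, coloured by call, and ticks for the value after both columns are scaled to equal totals. FAD2, FAD4 and the most abundant SAD5 transcript lie above 0 either way and the most abundant FAD5 transcript below 0, while the ticks of FAD6 and the most abundant FAB2 transcript cross to the other side of 0.

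In the stroma, FAB2 and SAD5 both encode enzymes that turn stearoyl-ACP into oleoyl-ACP. FAB2 is the main form of Arabidopsis leaves. Its most abundant transcript, of 1832 bases, fell from 103.1 FPKM at 23 °C to 90.3 at 43 °C. The authors' deposited table gives a log2 change of -0.20 with an adjusted p of 0.026, and the change became 0.054 with equal totals. A minor one of 1551 bases fell from 1.36 to 0.40 FPKM, a call that ended with equal totals (log2 change -1.50). The other 3 FAB2 transcripts were at most at 1.2975 FPKM at either temperature and did not pass. FAB2 as a whole thus had 106.4 FPKM in the cool and 92.4 FPKM in the hot leaves.

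The 2 SAD5 transcripts moved apart. One of 1978 bases rose from 23.0 to 119.1 FPKM, which was 5.16-fold and the largest rise among the abundant desaturases. The authors' deposited table gives a log2 change of 2.37 with an adjusted p of 2.47e-84, and the approximate 95% interval is 2.13 to 2.60. The other, of 1756 bases, was at 43.8 and 46.7 FPKM and did not pass (log2 change 0.08, interval -0.08 to 0.25), but passed as higher with equal totals (0.34). The difference between the log2 changes was 2.28, with an approximate 95% interval of 1.998 to 2.570. The first transcript made up 34.4% of the SAD5 sum at 23 °C and 71.8% at 43 °C, so a different SAD5 transcript was the more abundant at each temperature. Whether they are copies of the gene or variants of 1 gene was not tested, and reads of close copies can be split uncertainly between them.

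With these changes the order of the genes by summed FPKM differed between temperatures. At 23 °C it ran from FAD8 (193.5 FPKM) through FAD6, FAD5 (124.0), FAB2 (106.4), FAD2 (71.2), SAD5 (66.7) and FAD4 to FAD7. At 43 °C FAD8 (197.4 FPKM) was still first, followed by SAD5 (165.8), FAD2 (154.7), FAD6 (143.4), FAB2 (92.4), FAD5 (69.1), FAD4 and FAD7. FAD2 moved up from rank 5 to rank 3 and SAD5 from rank 6 to rank 2, and FAD5 moved down from rank 3 to rank 6. Neighbours in this order cannot be separated by a spread between replicates, which the means do not hold.

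**Figure D3:**
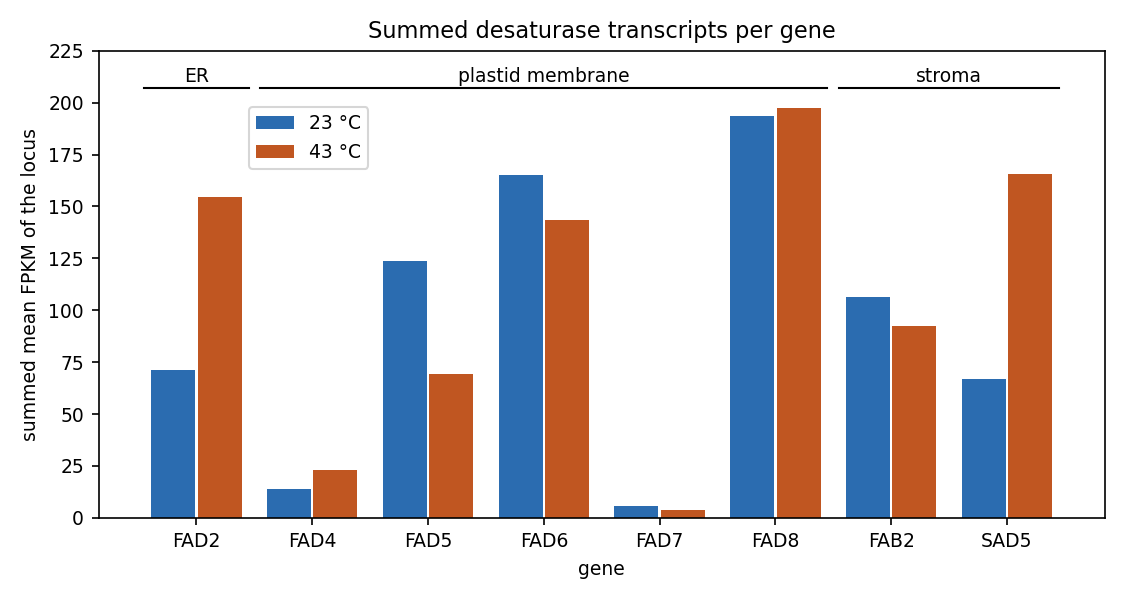
Mean FPKM summed over all transcripts of each gene at 23 °C and 43 °C, on a linear axis from 0, as single values without an error because the columns are means. FAD2 and SAD5 are below FAB2 at 23 °C and above it at 43 °C, and FAD8 is the highest gene at each temperature.

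The 5 plastid membrane genes had a sum of 502.2 FPKM at 23 °C against 436.7 at 43 °C, and the single ER gene to 71.2 and 154.7 FPKM. The plastid membrane to ER ratio was 7.05 at 23 °C and 2.82 at 43 °C, a 2.50-fold lower value that does not change when either column is multiplied by a factor. Stromal desaturases summed to 173.1 and 258.2 FPKM. ER transcripts made up 9.54% of the summed desaturase FPKM at 23 °C and 18.2% at 43 °C, plastid membrane transcripts 67.3% and 51.4%, and stromal transcripts 23.2% and 30.4%. The plastid membrane sum was lower at 43 °C by the deposited values (log2 ratio -0.20) but not with equal totals (0.052).

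Because the ER side holds 1 gene, the comparison was also made gene by gene, for 11 pairs in all, FAD2 against each plastid gene among them, as differences between the log2 changes of the most abundant transcripts. These intervals come from the authors' p-values, take the 2 transcripts as independent and were not adjusted for the number of pairs. FAD2 and FAD6 catalyse the same desaturation in the 2 compartments. Their log2 changes differed by 1.32 (approximate 95% interval 1.10 to 1.54), and the FAD2 to FAD6 ratio of summed FPKM went from 0.43 at 23 °C to 1.08 at 43 °C. FAD2 against FAD5 differed by 2.07 (1.84 to 2.30), the ratio of sums going from 0.57 to 2.24, and FAD2 against FAD8 by 1.07 (0.86 to 1.28), from 0.37 to 0.78. FAD2 also gained on FAD4 by 0.73 (0.45 to 1.01), on FAD7 by 1.69 (0.86 to 2.53) and on the stromal FAB2 by 1.31 (1.10 to 1.52). SAD5 went the other way: the log2 change of FAD2 minus that of SAD5 was -1.26 (-1.54 to -0.98), and the FAD2 to SAD5 ratio of sums went from 1.07 to 0.93. The ER gene therefore gained on every plastid membrane gene by the most abundant transcripts, and lost against the SAD5 transcript with the higher mean over both temperatures. At 23 °C the other SAD5 transcript was the higher of the 2 (43.8 against 23.0 FPKM). Its log2 change, 0.08, was below that of FAD2 (1.11), so the loss depends on which SAD5 transcript is taken.

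Within the plastid the genes also differed among themselves. By its most abundant transcript SAD5 gained 2.57 on FAB2 (2.29 to 2.85), its ratio of sums going from 0.63 to 1.79. The other SAD5 transcript had a log2 change of only 0.08. FAD4 gained 1.33 on FAD5 (1.04 to 1.63), both being enzymes that act on palmitate of plastid lipids, and their ratio of sums went from 0.11 to 0.33. FAD8 and FAD6 differed less, by 0.25 (0.031 to 0.47). At the authors' scaling 1 plastid membrane gene rose, 2 fell and 2 did not pass, where 26.9% of all matched loci rose and 30.9% fell. With equal totals FAD4 and FAD8 passed as higher and FAD5 as lower, while FAD6 (log2 change 0.041) and FAD7 (-0.33) did not pass. FAD4 was higher and FAD5 lower at either scaling, so these genes did not move as 1 group.

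**Figure D4:**
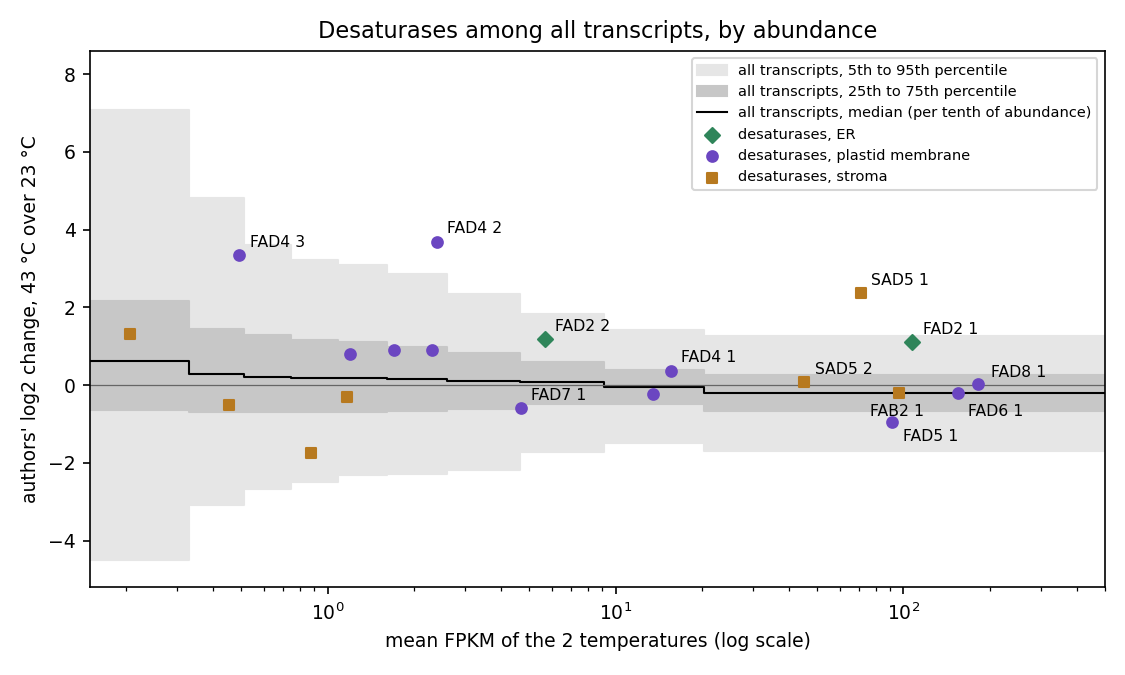
The authors' log2 change of each desaturase transcript against its mean FPKM over both temperatures (log axis), over bands for all 46492 transcripts that give the percentiles of the log2 change in each of 10 equal classes of abundance. The most abundant SAD5 transcript lies above the 95th percentile of its class (1.26), while FAD2 at 1.11 and FAD5 at -0.96 lie inside the band from the 5th percentile (-1.69) to the 95th.

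Beside other abundant transcripts, few desaturases stood out by size. In the most abundant 10% of the table, the central 90% of log2 changes ran from -1.69 to 1.26 with a median of -0.21. The most abundant SAD5 transcript, at 2.37, exceeded that range. The other SAD5 transcript, at 0.08, and the most abundant ones of FAD2, FAD5, FAD6, FAD8 and FAB2 lay within it. The second FAD4 transcript, at 3.69, exceeded the 95th percentile of its own abundance class (2.85).

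The electron donors of both systems were then examined. The plastid list of 9 genes holds ferredoxins, ferredoxin reductases and PRXQ, and 5 of them were matched. By their most abundant transcripts 2 rose, 2 fell and 1 did not pass. Over all matched loci counted in this way 26.9% rose and 30.9% fell. The leaf ferredoxin FD2 fell from 2704 to 2121 FPKM, a call that ended with equal totals (log2 change -0.10), and the leaf ferredoxin reductase FNR2 fell from 720.9 to 337.2 FPKM. FD3 and RFNR2, the ferredoxin and reductase typical of non-photosynthetic tissue in Arabidopsis, rose from 20.8 to 34.7 FPKM and from 3.27 to 6.53 FPKM. A second transcript matched to FD2 also rose, from 21.0 to 38.8 FPKM. PRXQ, the plastid peroxiredoxin that FAD4 needs in Arabidopsis, did not pass at 163.5 and 182.3 FPKM, though it did with equal totals (log2 change 0.40). All 6 transcripts of this list summed to 3634 FPKM at 23 °C against 2721 at 43 °C. That sum mixes ferredoxins with the reductases and PRXQ and does not measure the supply of donors. The FD2 transcripts alone summed to 2725 and 2160 FPKM.

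The cytochrome b5 system was listed at nearly the same level at both temperatures. Of 7 listed genes 5 were matched, and none rose, 1 fell and 4 did not pass by their most abundant transcripts. Beside the 26.9% of all matched loci that rose and 30.9% that fell, lists of 5 genes are too short to compare the 2 systems by such counts. The cytochromes CB5E (95.9 and 87.9 FPKM) and CB5B (36.5 and 39.4 FPKM) and the ER reductase CBR1 (19.1 and 17.6 FPKM) did not pass, with approximate 95% intervals of -0.30 to 0.04, -0.17 to 0.37 and -0.39 to 0.15 for their log2 changes. The gene that fell was CBR2, the mitochondrial reductase, from 43.6 to 37.2 FPKM, and it turned to a log2 change of 0.017 with equal totals. All 15 transcripts of the system, 1 of them higher and 1 lower, had sums of 296.8 and 298.4 FPKM. FAD2 transcripts thus rose without a called rise in the most abundant transcript of any matched gene of the cytochrome b5 system. With equal totals the most abundant transcripts of CB5B (log2 change 0.35) and CB5A (0.45) passed as higher. Among the less abundant transcripts, the second of CB5E (0.32), the second of CB5B (1.06) and 1 of CBR1 (0.83) passed as higher too. Another CBR1 transcript (1.19 with equal totals) had already risen at the authors' scaling, from 2.265 to 4.34 FPKM. The authors' deposited table gives it a log2 change of 0.93 and an adjusted p of 0.021. The contrast with FAD2 thus depends in part on the scaling.

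**Figure D5:**
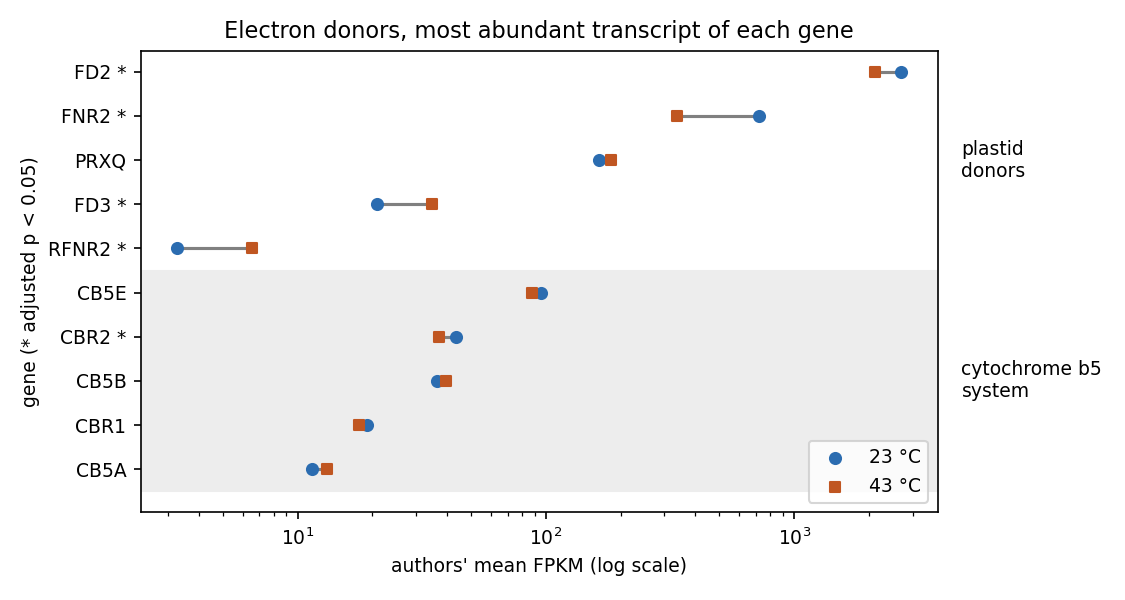
The authors' mean FPKM at 23 °C (circles) and 43 °C (squares) for the most abundant transcript of each matched gene of the 2 donor lists, on a log axis. The plastid list (ferredoxins, ferredoxin reductases and PRXQ) is above and the cytochrome b5 system below. FNR2 moves from 720.9 to 337.2 FPKM, whereas the pairs of points for the cytochrome b5 system lie close together.

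Few other desaturases were matched. Of 18 further genes, among them FAD3, the acyl-CoA desaturase-like ADS family and the remaining stearoyl-ACP desaturases, 2 had transcripts, and both belong to sphingolipid synthesis. SLD2, which desaturates the long-chain base of sphingolipids, was at 32.7 and 28.7 FPKM, and the DES-1-like gene at 7.72 and 7.39 FPKM. Neither passed, nor did the minor DES-1-like transcripts.

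The leaf markers were abundant, with the Rubisco small subunit RBCS1A at 3882 and 3154 FPKM, but they too moved with temperature. All 6 matched leaf markers of 9 listed fell by their most abundant transcript, though RBCS1A and PPC1 no longer passed with equal totals (log2 changes -0.053 and -0.084). Over all matched loci 30.9% fell in this way, and of the most abundant 10% of transcripts 48.6%. Of all 14 leaf marker transcripts 11 fell, 2 did not pass and 1 rose, the second of RCA, from 266.6 to 414.1 FPKM. The list went from a sum of 33754 FPKM at 23 °C to 17311 at 43 °C. Of 7 markers of guard cells, phloem and epidermis 6 were matched and 2 fell, the phloem sucrose transporter SUC2 from 207.2 to 55.3 FPKM and APL from 17.3 to 10.2 FPKM, and the list, most of it SUC2 at 23 °C, summed to 310.5 and 143.1 FPKM. The main transcripts of the guard cell genes FAMA (8.77 and 5.59 FPKM) and MYB60 (4.94 and 3.18 FPKM) were listed lower at 43 °C but did not pass. That of FAMA passed as lower after median centring. The epidermal wax genes did not follow: CER6 summed to 54.1 and 51.5 FPKM with no transcript passing, and CER1 to 8.64 and 11.03 FPKM. A minor CER1 transcript rose from 0.0525 to 0.79 FPKM, and the main one passed as higher with equal totals (log2 change 0.50). Of 5 seed oil markers only the oleosin OLE3 was matched, at 0.31 and 0.65 FPKM. In bulk leaf RNA fewer cells of a type and less RNA per cell cannot be told apart, and the part of these shifts in the desaturase values was not tested.

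The scale of the columns also bears on the small changes. Multiplied by length in kilobases, FPKM summed to 1084419 at 23 °C and 909555 at 43 °C, so equal totals add 0.25 to every log2 change. FAD2, FAD4 and SAD5 were higher and FAD5 lower at either scaling, while FAD6 and FAB2 changed sign.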

How the data were processed

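RNA of quailbush leaves was sequenced in 8 libraries, 4 at each growth temperature, grouped by title. CASAVA 1.8.2 and Bowtie2 are named in the submitters' processing notes without their roles. Per the file headers, the deposited table holds FPKM at each temperature, the authors' log2 fold change of 43 °C over 23 °C, the authors' p-value, an FDR and the best TAIR10 BLASTx match. All FPKM values were multiples of 0.0025 (within 1e-06), and were taken as the authors' means of 4 libraries. The sources used here do not give the assembler, counter, strand setting, normalization or test. Single libraries were not analysed here, so the planned test on them was replaced by the authors' deposited FDR, which equalled a Benjamini-Hochberg adjustment over all 46492 transcripts to within 3.2e-07. Read depth is unknown.

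Members are transcripts whose matched locus is on the rule's list of 9. FPKM values were summed per locus and per compartment with pandas 2.3.3. Approximate 95% intervals use a standard error derived from the authors' log2 change and p under a normal distribution (scipy 1.17.1). The derivation recovered known errors in simulated data drawn from that distribution, and whether the authors' p follow it is unknown. Differences between 2 transcripts treat these errors as independent. Alternatives were an FDR threshold of 0.01, pseudocounts of 0.1 and 1, equal length-weighted totals, median centring, quantile normalization, a minimum mean FPKM of 1 or 5, only matches with an E value up to 1e-30, and sums in place of the most abundant transcript. All member transcripts are reported. Of each other list genes were named in order of abundance, as a rule at most 3 per outcome. The members, the lists and the pairs compared were chosen with earlier results of these data known.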

Additional observations from a re-analysis of the deposited data

How the results depend on the processing

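By the most abundant transcript, FAD2 and SAD5 stayed higher and FAD5 lower under the alternatives run, and passed wherever a call could be made (sums have none, and pseudocounts and the E value limit keep the authors' p). The choice of that transcript by its mean over both temperatures, which matters for SAD5, was varied only by taking sums in its place. The number of member transcripts that fell (4) went to 1 at an adjusted p threshold of 0.01 and with equal totals and to 2 with quantile normalization, and the number of genes that fell (3) went to 1 in each of these. The number of transcripts that rose (6) went to 8 with equal totals and 7 with quantile normalization, and to 5 after median centring; at minimums of 1 and 5 FPKM it was 5 and 4. With equal totals, the log2 changes of FAB2 and FAD6 turned to 0.054 and 0.041 and their summed log2 ratios to 0.050 and 0.049, as the plastid membrane sum turned to 0.052, while the ER and stromal sums moved to 1.37 and 0.83. Quantile normalization gave 1.28 for the ER, -0.077 for the plastid membrane and 0.75 for the stroma. After median centring the plastid membrane sum was -0.30, the FAD8 sum turned to -0.068 and FAD4 no longer passed. The direction of these small changes rests on the scaling, whose cause was not tested. At a minimum of 5 FPKM FAD7 was left out. No paired analysis was possible because the table holds means, for which leaving out each replicate could not be run either. Read depth is unknown, and transcripts below 5 FPKM had wide intervals.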
